A study of Homo sapiens with 12 samples.

Results

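The Sorafenib response of HLE cells depleted of YAP and TAZ was read from 4 RNA sequencing libraries out of the 12 in the series. They were chosen by their labels: 2 libraries of cells transfected with siRNA against YAP and TAZ (siY/T) and cultured with Sorafenib, and 2 of siY/T cells cultured with DMSO, the solvent. HLE is an established human hepatocellular carcinoma line, and Sorafenib, an inhibitor of RAF kinases and of receptor tyrosine kinases, is a drug used against this cancer. The series also holds cells with a control siRNA (siCtrl) and with siRNA against ATF4, each with DMSO or Sorafenib, and 2 libraries per group. The labels give a Sorafenib dose of 5 μM, whereas the published description of this experiment gives another one, so the dose is uncertain. All groups shared the cell line and a transfection, and an siRNA lowers its target without deleting the gene. The labels do not state that the 2 libraries of a group came from separate cultures, so that p values measure only the spread between these libraries.

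YAP and TAZ are transcriptional coactivators held in check by the Hippo pathway, and they act in the nucleus mainly through the TEAD family of DNA-binding proteins. RAF kinases pass growth factor signals to MEK and ERK, and ERK in turn drives immediate early genes, their feedback inhibitors and entry into the cell cycle. ATF4 is the transcription factor of the integrated stress response, and its targets include genes for amino acid supply, among them the cystine transporter SLC7A11, whose activity protects cells from ferroptosis, an iron-dependent death by lipid peroxidation.

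Expression was measured as CPM, the reads assigned to a gene per 1000000 gene-assigned reads. The 4 siY/T libraries held 41408348 to 51266857 reads on genes. The siRNA targets were measured first. YAP1 was at 46.6 and 57.7 CPM in the siY/T DMSO libraries and at 48.7 and 47.0 CPM in the siY/T Sorafenib libraries, against 259 to 279.9 CPM in the 4 siCtrl libraries. WWTR1, which encodes TAZ, was at 49.3 to 68.6 CPM in siY/T cells and 145 to 173 CPM in siCtrl cells. Both transcripts were thus lower in every siY/T library than in every siCtrl library, and neither passed the test for Sorafenib in siY/T cells with all libraries (log2 fold change -0.11 ± 0.08 SE for YAP1 and -0.22 ± 0.09 SE for WWTR1; limma, Benjamini-Hochberg adjusted p = 0.22 and 0.051). Both rested on single libraries. Without siY_T_DMSO replicate 1 WWTR1 was at -0.40 (adjusted p = 2.3e-05) and YAP1 at -0.27 (adjusted p = 3.7e-04), and without siY_T_DMSO replicate 2 they were at -0.041 and 0.037. The adjusted p of WWTR1 was 0.022 with TMM scaling, 0.029 with quantile normalization, 0.021 with edgeR and 0.010 with DESeq2, at changes below the size threshold of 0.58 used here. Of the 7 hepatocyte markers, 6 were at or near 0 in all 12 libraries, with at most 0.117 CPM each (0.0214 CPM of ALB and 0 CPM of APOB). SERPINA1, which encodes alpha-1-antitrypsin, was at 2.32 and 1.64 CPM in siY/T DMSO and at 1.18 and 1.57 CPM in siY/T Sorafenib libraries (-0.40 ± 0.17 SE, limma, adjusted p = 0.063, and called lowered with edgeR but not with DESeq2). In siCtrl cells SERPINA1 was at 0.112 and 0.266 CPM and at 0.504 and 0.529 CPM. The markers summed to 1.69 to 2.44 CPM and 1.28 to 1.8 CPM in these siY/T groups and to 0.168 to 0.288 CPM and 0.57 to 0.625 CPM in siCtrl cells, and their part in the results was not tested. The mesenchymal transcript VIM was at 2339 CPM or more in the siY/T libraries. The 2 siY/T DMSO libraries stood further apart than those of any other group, with an SD of 0.190 of the log2 difference between them against 0.110 to 0.132 elsewhere. This difference moved with transcript length: replicate 1 was above replicate 2 by a median of 0.085 log2 units over the genes with the shortest transcripts (split evenly into 4 classes) and below it by a median log2 difference of -0.104 over those with the longest. Over the same classes the median Sorafenib change in siY/T cells went from -0.02 to 0.105, and in siCtrl cells from 0.051 to 0.071. The part of length in the results was not tested. In bulk RNA, fewer cells of a type and less RNA per cell cannot be told apart.

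With Sorafenib, 788 genes rose and 560 fell in siY/T cells, of 13515 genes tested. A gene was called when its log2 fold change, on the scale of log2(CPM + 0.5), was at least 0.58 in either direction at an adjusted p under 0.05 (limma, Benjamini-Hochberg). Raised genes were 5.83% and lowered genes 4.14% of all genes tested, and these shares are the background for the gene lists described here. At an adjusted p under 0.05 and any size of change, 7154 genes passed. In all 1348 called genes, both Sorafenib libraries lay on the same side of both DMSO libraries, as they did for 39.6% (above) and 32.1% (below) of all genes tested. The median change over all genes tested was 0.04. The balance of rises and falls depended on the scaling, as quantile normalization gave 645 raised and 729 lowered genes. The plot of changes by gene list places the lists in the order of their medians.

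**Figure D1:**
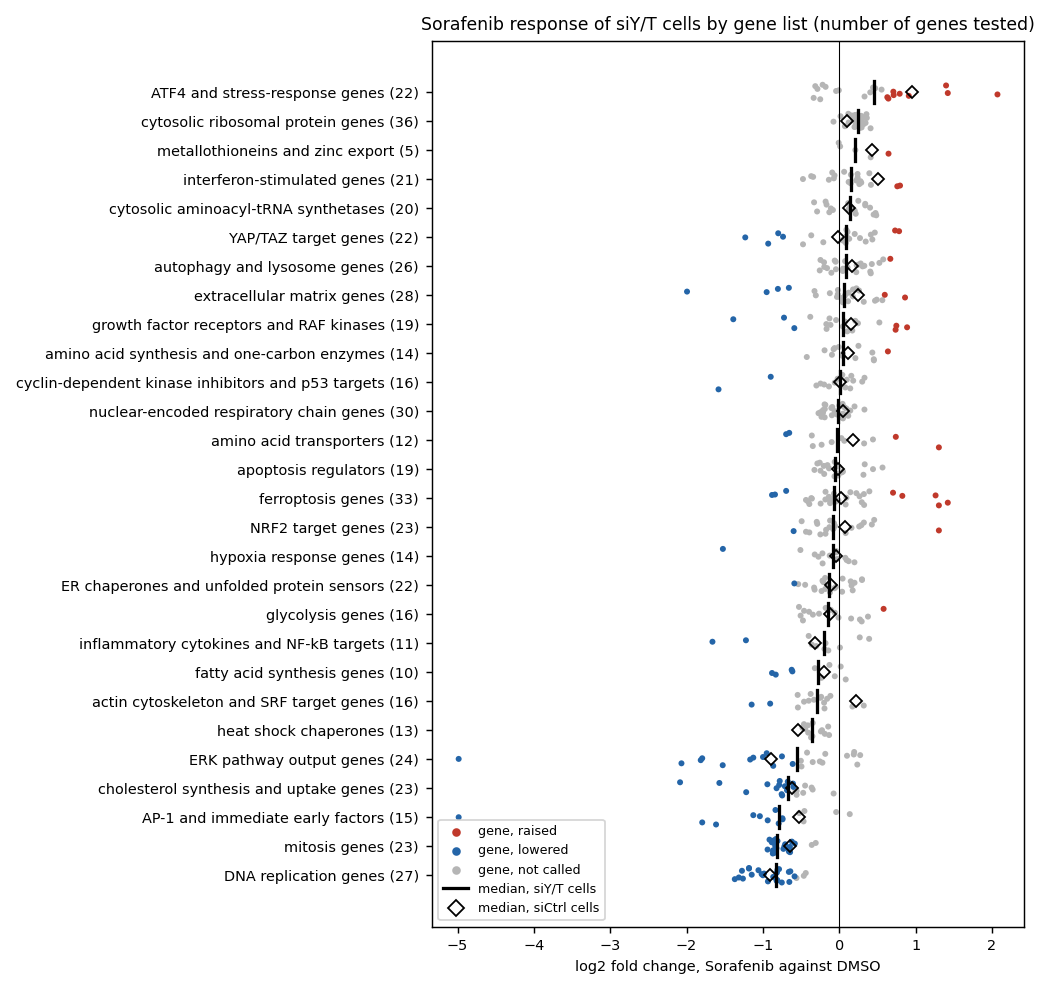
Log2 fold change with Sorafenib in siY/T cells for each tested member of 28 gene lists (points, coloured by call), with the list median in siY/T cells (bar) and in siCtrl cells (open diamond). DNA replication and mitosis genes lie lowest, with medians of -0.82 and -0.81, and ATF4 and stress-response genes highest, with a median of 0.46.

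The largest fall was that of EGR1, an immediate early transcription factor induced by ERK. EGR1 was at 35.8 and 33.0 CPM in siY/T DMSO libraries and at 0.471 and 0.748 CPM in siY/T Sorafenib libraries, a ratio of mean CPM of 56.5. The fitted log2 fold change was -4.99 ± 0.12 SE (limma, adjusted p = 6.4e-11), and the added 0.5 CPM makes it smaller than the ratio. In siCtrl cells EGR1 began lower, at 5.203 and 5.97 CPM, and reached 0.202 and 0.244 CPM, a ratio of 25.1, and the difference of effects was -1.91 ± 0.17 SE (limma interaction, adjusted p = 3.8e-05), or -1.20 with edgeR on whole reads. The gene lies on chromosome 5, 137801168 to 137804992 of GRCh37, on the plus strand. Its promoter is shown because it carries CArG boxes, the binding element of serum response factor (SRF), which ERK signalling acts on at immediate early genes. In the RefSeq window from 250 bases before to 50 after the start site (GRCh38.p14, chr5:138465229-138465528, plus strand), 2 matches to the CArG box are in capitals, beginning at -105 and -83 from the start.
EGR1: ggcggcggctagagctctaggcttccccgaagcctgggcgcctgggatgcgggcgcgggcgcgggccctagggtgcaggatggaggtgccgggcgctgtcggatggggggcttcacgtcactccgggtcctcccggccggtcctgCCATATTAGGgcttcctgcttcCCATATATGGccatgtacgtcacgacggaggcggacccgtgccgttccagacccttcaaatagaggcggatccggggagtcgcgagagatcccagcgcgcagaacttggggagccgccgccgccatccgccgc
A CArG box was held by 1.02% of the promoters of 10710 tested genes that had a window, by 1.57% of those of lowered genes and by 1.3% of those of raised genes. The motif was searched on both strands and was chosen with the EGR1 value known. A match is a description of the letters, not a binding site.

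Genes downstream of ERK fell as a group in siY/T cells. Of 24 ERK output genes tested, 12 fell and 0 rose, with a median log2 fold change of -0.56 against 0.04 over all genes. Among the feedback inhibitors, SPRY4, a Sprouty protein that restrains receptor signalling, went from 14.7 and 11.2 CPM to 3.21 and 2.22 CPM (log2 fold change -2.07 ± 0.14 SE). DUSP6, the phosphatase that inactivates ERK, went from 9.21 and 8.19 CPM to 2.78 and 2.60 CPM (-1.53 ± 0.09 SE). In both genes every Sorafenib library was below every DMSO library, as in all genes called lowered. Among the transcription factors, ETV4 and ETV5, of the PEA3 group, changed by -1.81 ± 0.16 SE and -1.17 ± 0.08 SE. CCND1, the G1 cyclin D1, was at 357 and 311 CPM with DMSO and at 217 and 180.3 CPM with Sorafenib (-0.75 ± 0.08 SE). MYC, at 105 and 99.0 CPM with DMSO and at 118 and 116 CPM with Sorafenib, did not pass the size threshold (0.19 ± 0.05 SE). EPHA2 and EPHA4, ephrin receptors, also stayed below it, at 0.10 ± 0.05 SE and 0.27 ± 0.07 SE. The list's median was -0.85 with edgeR on whole reads, which adds less to low values. In siCtrl cells 15 of the 24 fell, with a median of -0.89, against 5.15% lowered and 12.3% raised of all genes tested.

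Members of the AP-1 family and other immediate early factors also fell, 10 of 15 tested, with 0 raised and a median of -0.79. EGR1, FOSL1 and IER3 are members of both this list and the ERK list. FOSL1, the FRA1 subunit of AP-1, went from 141 and 114 CPM to 43.1 and 30.4 CPM (-1.80 ± 0.12 SE, limma, adjusted p = 1.7e-07). FOS was low throughout, at 1.76 and 1.96 CPM with DMSO and at 0.235 and 0.304 CPM with Sorafenib (-1.61 ± 0.13 SE). JUN, the subunit with which FOS proteins pair, went from 152 and 141 CPM to 79.0 and 73.8 CPM (-0.94 ± 0.06 SE). The groups did not overlap for any of these subunits, as in all called genes. JUND and JUNB fell as well, by 0.75 and 0.74 on the log2 scale. IER3 and IER2, immediate early genes, changed by -1.13 ± 0.05 SE and -1.04 ± 0.05 SE. KLF6 (-0.46 ± 0.05 SE) and FOSL2 (-0.47 ± 0.05 SE) were below the size threshold, and NR4A1, a nuclear receptor, was at 0.14 ± 0.11 SE. JUND and JUNB were named after their values were seen.

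The Sorafenib responses of JUN and JUND differed from those in siCtrl cells. In siCtrl cells JUN was at 224 and 215 CPM with DMSO and at 195 and 217 CPM with Sorafenib, 2 groups that overlap, and its Sorafenib effect in siY/T cells was lower by 0.85 ± 0.08 SE (limma interaction, adjusted p = 7.7e-05). JUND was at 39.7 and 40.6 CPM in siCtrl DMSO and at 58.2 and 59.0 CPM in siCtrl Sorafenib libraries, but at 59.7 and 56.6 CPM and at 34.1 and 34.9 CPM in the matching siY/T libraries. Its difference of effects was -1.28 ± 0.07 SE (limma interaction, adjusted p = 1.7e-06). For FOSL1 the difference of -0.50 ± 0.18 SE did not pass (adjusted p = 0.061). Of the 15 factors, 8 had a lower Sorafenib effect in siY/T cells (5 with DESeq2) and 0 a higher one. Over all genes tested 14.2% had a lower and 7.81% a higher effect, at an adjusted p under 0.05. The feedback inhibitor SPRY2 and CCND1 differed in the other direction, as they fell less in siY/T than in siCtrl cells, by 0.83 ± 0.10 SE and 0.56 ± 0.11 SE (adjusted p = 3.0e-04 and 3.8e-03). SPRY2 and CCND1 were named after their values were seen, and the fall of SPRY2 in siY/T cells was below the size threshold without siY_T_DMSO replicate 1 (-0.54) or siY_T_SRF replicate 2 (-0.53).

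**Figure D2:**
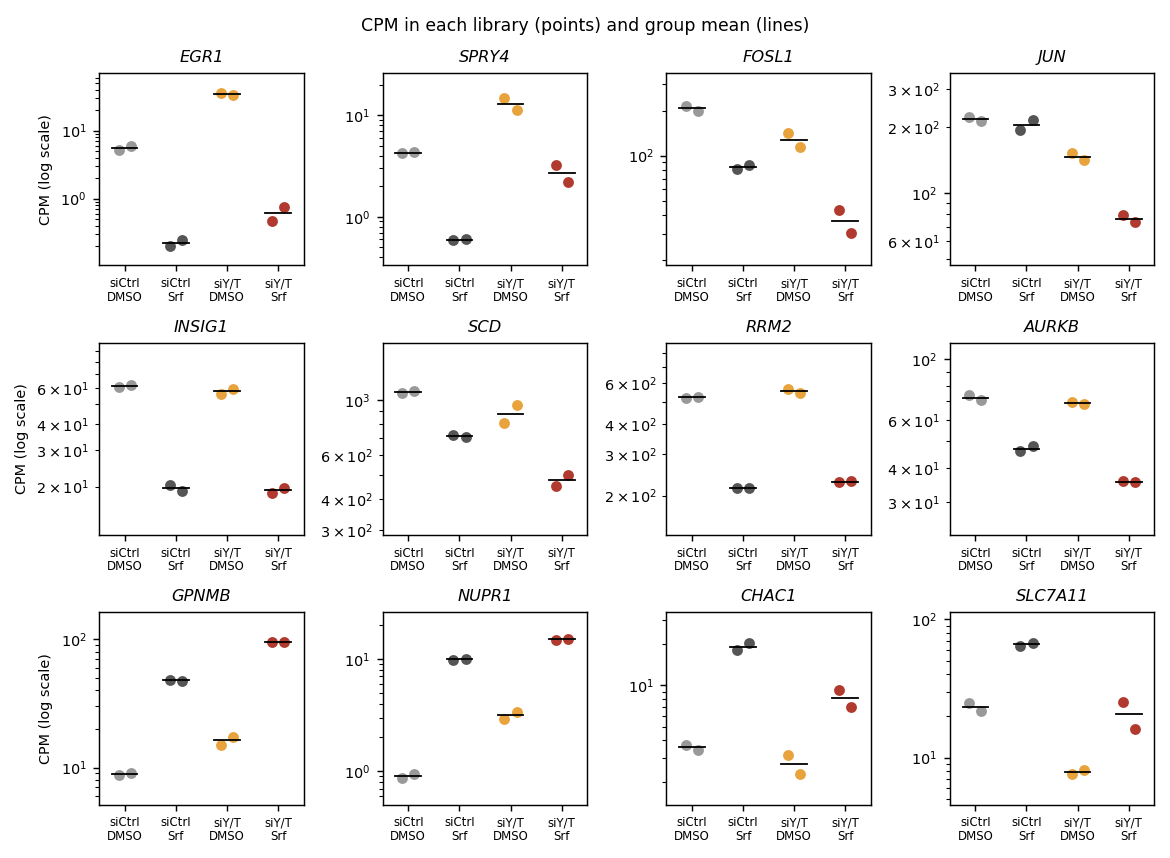
CPM on a log axis in each of the 4 siY/T and 4 siCtrl libraries (points) with the mean of each group (line) for 12 genes. In siY/T cells EGR1 drops from above 33 to below 0.75 CPM, JUN falls while its siCtrl groups overlap, and GPNMB, NUPR1, CHAC1 and SLC7A11 are higher in both Sorafenib libraries than in both DMSO libraries.

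Most genes of the cell cycle fell. Of 27 DNA replication genes, 24 fell and 0 rose (median -0.82), and of 23 mitosis genes, 21 fell and 0 rose (median -0.81). RRM2, the small subunit of ribonucleotide reductase, which makes deoxynucleotides, was at 564 and 546 CPM with DMSO and at 228 and 229.6 CPM with Sorafenib (-1.27 ± 0.04 SE, limma, adjusted p = 2.9e-10). MCM10 and CDC45, needed to start replication forks, changed by -1.37 ± 0.07 SE and -1.32 ± 0.08 SE. CDC6, which loads the replicative helicase, went from 101 and 91.2 CPM to 42.0 and 37.5 CPM (-1.26 ± 0.06 SE). CCNE1 and CCNE2, the E cyclins of the G1/S transition, both changed by -1.18, with SEs of 0.10 and 0.12. POLE, LIG1 and CDT1, a DNA polymerase, a ligase and a licensing factor, were the 3 members not called, at -0.46, -0.44 and -0.56.

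The called mitotic genes had falls of like size. AURKB, the Aurora kinase of the chromosomal passenger complex, was at 69.4 and 68.3 CPM with DMSO and at 35.9 and 35.4 CPM with Sorafenib (-0.94 ± 0.05 SE). UBE2C, the ubiquitin-conjugating enzyme of the anaphase-promoting complex, changed by -0.91 ± 0.04 SE. ESPL1, the protease separase, changed by -0.88 ± 0.04 SE, CCNA2, cyclin A2, by -0.87 ± 0.04 SE, PLK1, a mitotic kinase, by -0.87 ± 0.04 SE, and AURKA, the Aurora kinase of spindle poles, by -0.86 ± 0.04 SE. The 2 members not called were TOP2A and CENPF. TOP2A, topoisomerase II, was at 551 and 821 CPM with DMSO and at 532 and 516 CPM with Sorafenib, and CENPF, a kinetochore protein, at 259 and 387 CPM and at 254 and 257 CPM. Both Sorafenib libraries were below both DMSO libraries for each of them. Without siY_T_DMSO replicate 1, all 23 mitosis genes fell, TOP2A by 0.65 and CENPF by 0.60 on the log2 scale. Without siY_T_DMSO replicate 2, 16 of them fell. In siCtrl cells 23 of the replication genes and 14 of the mitosis genes fell. The effect was lower in siY/T cells for 8 of the 23 mitosis genes, AURKB (-0.32 ± 0.07 SE), UBE2C (-0.27 ± 0.06 SE) and ESPL1 (-0.35 ± 0.06 SE) among them, and higher for 0. Among all genes tested the shares were 14.2% lower and 7.81% higher. This count for the mitosis genes rested on the siY/T DMSO libraries, as it was 14 lower without siY_T_DMSO replicate 1, and 9 lower and 5 higher without siY_T_DMSO replicate 2. With quantile normalization it was 12 lower.

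No tested inhibitor of cyclin-dependent kinases or p53 target was called raised. CDKN1A, which encodes the p21 inhibitor of cyclin-dependent kinases and is a p53 target, was at 18.4 and 14.2 CPM with DMSO and at 5.37 and 4.79 CPM with Sorafenib (-1.58 ± 0.10 SE, limma, adjusted p = 1.0e-07). AEN, a p53-induced nuclease, changed by -0.90 ± 0.10 SE. These 2 were the members called, both lowered, among 16 inhibitors and p53 targets tested. At an adjusted p under 0.05 and any size (limma), 4 of the 16 were above 0 and 6 below. BAX, XPC and CDKN2C, at -0.25, 0.33 and -0.13, were below the size threshold. Of 19 apoptosis regulators 0 were called with limma, though 3 were above 0 and 7 below at an adjusted p under 0.05 and any size. On whole reads, 1 rose with edgeR and 0 with DESeq2.

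Cholesterol synthesis and uptake genes fell together, 14 of 23 tested with 0 raised and a median of -0.67. These genes are controlled by SREBP transcription factors according to the sterol level of the cell. INSIG1, which holds SREBP back in the endoplasmic reticulum, went from 56.4 and 59.6 CPM to 18.6 and 19.8 CPM (-1.57 ± 0.07 SE, limma, adjusted p = 7.5e-09). Its groups did not overlap, as in all called genes. Along the synthesis pathway, IDI1 changed by -1.22 ± 0.07 SE, MSMO1 by -0.82 ± 0.09 SE and DHCR7 by -0.79 ± 0.05 SE. FDFT1, squalene synthase, was just below the size threshold (-0.56 ± 0.04 SE). LSS was at -0.35 ± 0.04 SE. For INSIG1 the difference of effects, siY/T minus siCtrl, was 0.04 ± 0.10 SE. In siCtrl cells 14 of the 23 fell too, with a median of -0.62.

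Among 10 fatty acid synthesis genes, 4 fell and 0 rose. SCD, the desaturase that makes monounsaturated fatty acids, was at 804 and 951 CPM with DMSO and at 450.2 and 501 CPM with Sorafenib (-0.88 ± 0.07 SE). FASN, fatty acid synthase, went from 509.9 and 561 CPM to 306 and 294 CPM (-0.83 ± 0.05 SE), FADS1, a desaturase, changed by -0.62 ± 0.04 SE, and ELOVL6, an elongase, by -0.61 ± 0.09 SE. Leaving out siY_T_DMSO replicate 2 or siY_T_SRF replicate 2 took ELOVL6 below the threshold, at -0.45 and -0.56. ACLY, which makes acetyl-CoA in the cytosol, was at -0.23 ± 0.04 SE. The other large falls included MMP1, a collagenase, at 548 and 413 CPM with DMSO and at 133 and 106 CPM with Sorafenib (-1.99 ± 0.12 SE). STC1, a secreted glycoprotein, changed by -1.90 ± 0.13 SE, SHISA2 by -1.73 ± 0.08 SE, PLEK2 by -1.53 ± 0.14 SE, and ANGPTL4, an inhibitor of lipoprotein lipase, by -1.52 ± 0.09 SE. Of the genes lowered in siY/T cells, the most abundant reported here were the tubulins TUBA1B (2618 and 2446 CPM to 1442 and 1478 CPM) and TUBA1C (1796 and 1721 CPM to 1024 and 1025 CPM). The tubulin genes are near copies, and as the authors kept unique hits only, reads common to them were left out.

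The largest rise was that of GPNMB, a transmembrane glycoprotein of lysosomes and melanosomes. GPNMB was at 15.1 and 17.4 CPM with DMSO and at 96.0 and 96.3 CPM with Sorafenib (2.53 ± 0.12 SE, limma, adjusted p = 8.4e-09). It lies on chromosome 7, 23275586 to 23314727 of GRCh37. SPNS2, a transporter of sphingosine 1-phosphate, rose from 9.91 and 11.3 CPM to 44.2 and 47.2 CPM (2.06 ± 0.12 SE), and RASL10B, a small GTPase, from 2.26 and 1.64 CPM to 9.16 and 10.4 CPM (2.07 ± 0.14 SE). In each of these genes both Sorafenib libraries were above both DMSO libraries, as the choice of the largest rises required. AQP1, a water channel, changed by 1.64 ± 0.17 SE, PLCD4, a phospholipase C, by 1.68 ± 0.15 SE, NRTN, the growth factor neurturin, by 1.48 ± 0.12 SE, and ALDH3B1, an aldehyde dehydrogenase, by 1.43 ± 0.05 SE. ART5, TTLL6 and MUC15 rose by 1.59, 1.55 and 1.45. The exons of SPNS2, PLCD4 and MUC15 overlap those of another listed gene on the opposite strand, so reads could be shared where counting ignored strand. RASL10B and MUC15 rose more in siY/T than in siCtrl cells, by 0.78 ± 0.19 SE and 0.93 ± 0.23 SE (limma interaction, adjusted p = 0.013 and 0.011). The RASL10B difference rests on the added 0.5 CPM, as the gene was at 0.336 and 0.399 CPM in siCtrl DMSO libraries, and edgeR on whole reads gave 0.16 (adjusted p = 0.75). Without siCtr_DMSO replicate 2 neither difference passed (adjusted p = 0.053 for RASL10B and 0.060 for MUC15), nor did that of MUC15 without siY_T_SRF replicate 1. ALDH3B1, ART5 and NRTN rose less, by 0.77 ± 0.08 SE, 0.77 ± 0.16 SE and 0.70 ± 0.17 SE, and for GPNMB the difference was 0.16 ± 0.17 SE. The NRTN difference did not pass without siY_T_SRF replicate 1, siCtr_DMSO replicate 1 or siCtr_SRF replicate 1 (adjusted p = 0.060, 0.052 and 0.052). The most abundant raised genes were PABPC1, the poly(A)-binding protein (1115 and 1117 CPM to 1656 and 1733 CPM), LAMB1, a laminin chain (915 and 991 CPM to 1430.4 and 1449 CPM), and EIF4B, a translation initiation factor (676 and 682 CPM to 1074 and 1069 CPM). Their log2 fold changes were 0.60, 0.60 and 0.66. PABPC1 and LAMB1 were no longer called with TMM scaling, at 0.57 each. LAMB1 was also below the threshold without siY_T_DMSO replicate 1 (0.54), and PABPC1 without siY_T_SRF replicate 2 (0.57).

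Part of the stress response controlled by ATF4 rose without YAP and TAZ, and most of its genes had a lower effect than with them. Of 22 ATF4 and stress-response genes tested, 9 rose and 0 fell in siY/T cells, with a median log2 fold change of 0.46, against 16 raised, 1 lowered and a median of 0.95 in siCtrl cells. ATF4 itself was at 207 and 197 CPM with DMSO and at 317 and 314 CPM with Sorafenib (0.64 ± 0.04 SE, limma, adjusted p = 1.6e-07). In siCtrl cells it was at 248 and 249 CPM and then at 484 and 492 CPM, and the effect in siY/T cells was lower by 0.33 ± 0.06 SE (adjusted p = 3.5e-03). NUPR1, a stress-induced nuclear protein, rose from 2.95 and 3.38 CPM to 14.8 and 14.99 CPM (2.07 ± 0.11 SE), and ADM2, a secreted peptide hormone, from 6.30 and 6.30 CPM to 18.4 and 16.6 CPM (1.40 ± 0.10 SE). DDIT3, the factor CHOP, and TRIB3, its pseudokinase target, changed by 0.91 ± 0.05 SE and 0.79 ± 0.09 SE, and JDP2, a repressor of AP-1, by 0.71 ± 0.11 SE at under 2 CPM in all 4 libraries. The exons of ADM2 and DDIT3 overlap a gene on the opposite strand.

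CHAC1, an ATF4 target that degrades glutathione, was at 3.14 and 2.29 CPM in siY/T DMSO and at 9.22 and 7.01 CPM in siY/T Sorafenib libraries (1.42 ± 0.14 SE, limma, adjusted p = 3.1e-06). In siCtrl cells it went from 3.71 and 3.40 CPM to 18.0 and 20.3 CPM, so that the DMSO levels were close and the Sorafenib levels were not. The gene lies on chromosome 15, 41245160 to 41248710 of GRCh37, plus strand. Its promoter is shown because, of the raised members considered, only its window held the CARE motif TGATGNAA, the composite element bound by ATF4 with C/EBP factors. Genes on a chromosome left out of the choice were not considered. In the RefSeq window (GRCh38.p14, chr15:40953221-40953520, plus strand) the match is in capitals, on the minus strand, beginning at -209 from the start site.
CHAC1: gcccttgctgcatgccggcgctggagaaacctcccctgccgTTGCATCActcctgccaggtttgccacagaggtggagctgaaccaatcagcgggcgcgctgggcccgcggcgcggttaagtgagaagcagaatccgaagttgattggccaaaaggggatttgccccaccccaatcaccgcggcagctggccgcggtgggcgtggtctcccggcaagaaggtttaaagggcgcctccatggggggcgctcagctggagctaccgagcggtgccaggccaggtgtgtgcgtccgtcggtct
Searched on both strands, CARE was held by 3 of the 20 stress genes with a window (15%), by 1.7% of the promoters of genes tested and by 1.95% of those of genes raised in siY/T cells. Its share was higher in lists with fewer rises: 37.5% for aminoacyl-tRNA synthetases, 30% for amino acid synthesis and one-carbon enzymes and 27.3% for amino acid transporters. Members without a match only lack these letters in this window.

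Of the 22 stress genes, 15 had a lower Sorafenib effect in siY/T than in siCtrl cells and 1, the factor ATF5, a higher one (named as the only such member). Among all genes tested the shares were 14.2% lower and 7.81% higher. The differences included ADM2 (-0.96 ± 0.13 SE), CHAC1 (-0.85 ± 0.19 SE), NUPR1 (-0.80 ± 0.16 SE), DDIT3 (-0.69 ± 0.07 SE) and TRIB3 (-0.69 ± 0.12 SE). These genes rose in both kinds of cells. ATF3, a stress-induced repressor, was instead at 14.98 and 14.8 CPM with DMSO and at 12.9 and 12.02 CPM with Sorafenib in siY/T cells (-0.25 ± 0.06 SE), and at 21.3 and 21.2 CPM and then at 35.8 and 35.8 CPM in siCtrl cells (0.74). Its difference of effects was -0.99 ± 0.08 SE (limma interaction, adjusted p = 3.6e-05). VEGFA, the angiogenic factor, had the same pattern, at -0.22 ± 0.06 SE in siY/T cells and 0.50 in siCtrl cells. GDF15, a secreted stress cytokine named after its values were seen, was at 9.09 and 9.10 CPM with DMSO and at 7.53 and 6.92 CPM with Sorafenib, and DMSO levels of GDF15 in siCtrl cells were lower, at 5.05 and 4.97 CPM, with 9.35 and 10.6 CPM under Sorafenib. WARS1, a tRNA synthetase that ATF4 controls, was at -0.18 ± 0.05 SE in siY/T and -0.15 in siCtrl cells.

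**Figure D3:**
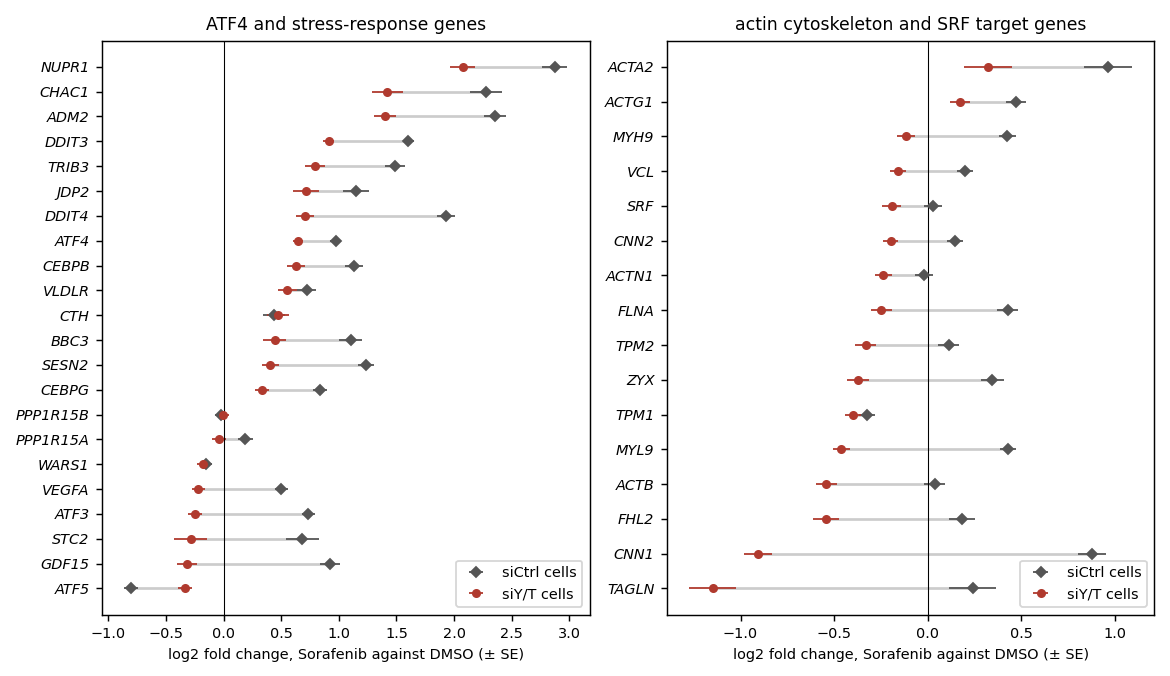
Log2 fold change with Sorafenib ± SE in siY/T cells (circles) and siCtrl cells (diamonds) for the tested members of the ATF4 and stress-response list (left) and the actin cytoskeleton and SRF target list (right). Of 22 stress genes 9 rise in siY/T and 16 in siCtrl cells, and 15 have a lower effect in siY/T cells, as have 15 of 16 actin genes, most of which lie on opposite sides of 0.

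Most amino acid supply genes downstream of ATF4 were not called, although SLC7A11 rose. Few were called in siCtrl cells either. There 2 of 12 amino acid transporters rose and 1 fell, and 1 of 14 synthesis and one-carbon enzymes and 2 of 20 aminoacyl-tRNA synthetases rose. Of the 12 transporters, 2 rose and 2 fell in siY/T cells. SLC7A11, the cystine importer, was at 7.67 and 8.16 CPM with DMSO and at 25.3 and 16.2 CPM with Sorafenib (1.31 ± 0.14 SE, limma, adjusted p = 9.5e-06). Its Sorafenib libraries differed among themselves more than its DMSO libraries, and all values were below those of siCtrl cells under the same treatment, at 24.7 and 21.7 CPM and at 64.5 and 67.1 CPM. The difference of effects was -0.18 ± 0.20 SE (limma interaction, adjusted p = 0.55), which does not show that the rises were alike. The exons of SLC7A11 overlap those of SLC7A11-AS1 on the opposite strand, which reached 17.3 CPM, so reads could be shared where counting ignored strand. SLC6A9, a glycine transporter, changed by 0.74 ± 0.10 SE and was just below the threshold without siY_T_SRF replicate 1. SLC7A6, a transporter of cationic and neutral amino acids, changed by -0.70 ± 0.06 SE and SLC6A8, the creatine transporter, by -0.66 ± 0.10 SE. Of 14 enzymes of amino acid synthesis and one-carbon metabolism, 1 rose (3 without siY_T_SRF replicate 2): ASNS, asparagine synthetase, from 36.4 and 28.7 CPM to 58.1 and 43.999 CPM (0.64 ± 0.12 SE), a call lost without siY_T_DMSO replicate 2 (0.47) or siY_T_SRF replicate 1 (0.44). PHGDH, the first enzyme of serine synthesis, was at 0.45 ± 0.06 SE and GLUL, glutamine synthetase, at 0.25 ± 0.05 SE. None of 20 aminoacyl-tRNA synthetases was called (0 with limma, edgeR and DESeq2). At an adjusted p under 0.05 and any size (limma), 13 were above 0 and 5 below. AARS1 (0.48 ± 0.05 SE), LARS1 (0.40 ± 0.05 SE) and QARS1 (0.34 ± 0.04 SE) were among those above.

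Of 33 ferroptosis genes 5 rose and 3 fell, and SLC7A11 and CHAC1 were among the raised. SAT1, the enzyme that acetylates polyamines, was at 12.9 and 11.9 CPM with DMSO and at 30.3 and 30.4 CPM with Sorafenib (1.26 ± 0.07 SE). In siCtrl cells it was at 7.44 and 7.26 CPM and at 10.0 and 9.50 CPM, so the rise was larger in siY/T cells, by 0.87 ± 0.10 SE (limma interaction, adjusted p = 1.9e-04). ALOXE3, a lipoxygenase, was at 0.273 and 0.411 CPM and at 1.24 and 0.772 CPM. The members lowered included SCD and TFRC, the transferrin receptor that brings in iron, which went from 152 and 159.7 CPM to 95.9 and 78.4 CPM (-0.84 ± 0.07 SE). FTH1, the ferritin heavy chain, was at 0.32 ± 0.05 SE and NCOA4, the receptor that delivers ferritin to autophagy, at 0.22 ± 0.04 SE. None of 7 lipid peroxide defence genes was called (0 with limma, edgeR and DESeq2), though 3 were below 0 at an adjusted p under 0.05 with limma. Of 23 NRF2 targets, which answer oxidative stress, SLC7A11 rose and SRXN1, sulfiredoxin, fell (-0.60 ± 0.05 SE, a call lost without siY_T_DMSO replicate 1 at -0.51). TKT, transketolase, was at 0.16 ± 0.04 SE.

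Targets of YAP and TAZ did not move in 1 direction. Of 22 tested, 2 rose and 4 fell, with a median of 0.09. CCN2, the matricellular protein CTGF, was at 7.47 and 7.85 CPM with DMSO and at 3.68 and 3.88 CPM with Sorafenib (-0.93 ± 0.08 SE), and IGFBP3, which binds insulin-like growth factors, at 44.3 and 42.0 CPM and at 25.8 and 23.3 CPM (-0.80 ± 0.07 SE). Both were already lower with DMSO than in siCtrl cells, where CCN2 was at 33.7 and 32.5 CPM and IGFBP3 at 528 and 518 CPM, and both fell less in siY/T cells, by 0.53 ± 0.12 SE and 0.49 ± 0.10 SE (limma interaction, adjusted p = 7.5e-03 and 5.3e-03). F3, tissue factor, changed by -1.23 ± 0.13 SE in siY/T cells, and NT5E, the ectonucleotidase CD73, by -0.74 ± 0.11 SE. NT5E was just below the threshold without siY_T_SRF replicate 2 (-0.5785). The raised members were RBMS3, an RNA-binding protein (0.78 ± 0.10 SE), and TGFB2, a growth factor (0.73 ± 0.09 SE). Without siY_T_DMSO replicate 1 both were just below the threshold, at 0.57 and 0.56, which left 0 raised. MYOF and CRIM1, at 0.47 ± 0.05 SE and 0.27 ± 0.05 SE, were not called. The TEAD core GGAATG, on either strand, was in 6 of 17 promoter windows of these targets (35.3%), in 10.8% of those of all genes tested, and in 12% and 12.1% of those of raised and lowered genes. The list was written to hold YAP and TAZ targets, so its high share is not a result about Sorafenib.

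Genes of the actin cytoskeleton and targets of SRF responded differently in siY/T and siCtrl cells. Of 16 members 15 had a lower Sorafenib effect in siY/T cells and 0 a higher one, against 14.2% and 7.81% of all genes tested. The list medians were -0.29 in siY/T and 0.22 in siCtrl cells. SRF, with its actin-regulated cofactors, drives genes of contractile fibres. CNN1, calponin, was at 25.9 and 23.7 CPM with DMSO and at 13.0 and 13.0 CPM with Sorafenib in siY/T cells (-0.91 ± 0.07 SE), and at 18.7 and 19.5 CPM and at 34.3 and 36.7 CPM in siCtrl cells (0.88). Its difference of effects was -1.78 ± 0.10 SE (limma interaction, adjusted p = 1.7e-06). TAGLN, transgelin, was at 20.8 and 18.9 CPM and at 8.39 and 8.95 CPM in siY/T cells (-1.15 ± 0.13 SE), and at 20.1 and 18.8 CPM and at 21.4 and 24.7 CPM in siCtrl cells, a difference of -1.39 ± 0.18 SE. The exons of TAGLN overlap those of PCSK7 on the opposite strand, which reached 77.8 CPM. The DMSO levels of TAGLN were alike in both kinds of cells, and the Sorafenib levels were not. These 2 were the members called lowered in siY/T cells, and 4 were without siY_T_DMSO replicate 2 or siY_T_SRF replicate 1. ACTB, beta-actin, was at 5349.7 and 4839.8 CPM and at 3653 and 3344 CPM (-0.54 ± 0.06 SE, and past the threshold without siY_T_DMSO replicate 2, at -0.61, or siY_T_SRF replicate 1, at -0.61), and FLNA, filamin A, an actin crosslinker, at 3812 and 3678 CPM and at 3239.8 and 3068 CPM (-0.25 ± 0.05 SE). Their differences of effects were -0.58 ± 0.08 SE and -0.67 ± 0.08 SE. ACTG1, gamma-actin, was at 0.17 ± 0.06 SE in siY/T and 0.47 in siCtrl cells. Leaving out 1 library at a time gave 11 to 15 members with a lower effect. With DUSP8, a phosphatase of stress kinases at 1.91 and 1.96 CPM and at 0.834 and 1.03 CPM in siY/T cells and at 1.60 and 2.06 CPM and at 5.06 and 5.33 CPM in siCtrl cells, CNN1 was 1 of 2 genes among all tested that fell in siY/T and rose in siCtrl cells. The difference for DUSP8, named after its values were seen, was -2.06 ± 0.18 SE.

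The promoters of FHL2, a LIM protein that SRF controls, and FLNA are shown for their differences (-0.73 ± 0.10 SE and -0.67 ± 0.08 SE). These were the largest of the members considered that differed and had a CArG box in the window. The same chromosome was left out of this choice. The windows are those of RefSeq on GRCh38.p14, chr2:105438464-105438763 and chrX:154374585-154374884, both minus strand, with the CArG box in capitals, beginning at -101 and -94 from the start site.
FHL2: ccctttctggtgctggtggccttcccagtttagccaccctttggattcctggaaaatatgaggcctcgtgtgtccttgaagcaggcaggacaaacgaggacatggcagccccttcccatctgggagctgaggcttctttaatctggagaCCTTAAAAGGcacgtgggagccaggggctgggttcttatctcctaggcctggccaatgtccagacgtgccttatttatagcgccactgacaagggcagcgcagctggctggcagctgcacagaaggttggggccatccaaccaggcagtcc
FLNA: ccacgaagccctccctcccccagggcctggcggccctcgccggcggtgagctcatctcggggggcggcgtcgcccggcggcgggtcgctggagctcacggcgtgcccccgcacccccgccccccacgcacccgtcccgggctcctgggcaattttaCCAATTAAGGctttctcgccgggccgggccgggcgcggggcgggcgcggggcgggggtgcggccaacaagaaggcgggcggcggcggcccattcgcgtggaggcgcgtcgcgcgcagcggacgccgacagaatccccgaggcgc
FHL2 was named after its values were seen. Of 13 members with a window, 5 held a CArG box (38.5%), against 1.02% of all genes tested and 1.7% of genes with a lower effect in siY/T cells. The list was written to hold SRF targets, so its high share is not a result about Sorafenib.

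Over all genes tested, the Sorafenib effects of siY/T and siCtrl cells, which share no library, had a Pearson r of 0.766 and a Spearman rho of 0.738 across 13515 genes, which are not independent replicates. Of the genes raised in siY/T cells, 575 rose in siCtrl cells too (73% of the former and 34.5% of the latter), and of those lowered, 350 fell in both (62.5% and 50.3%). A further 213 genes rose and 208 fell in siY/T cells without a call in siCtrl cells, and the difference of effects itself passed for 51 and 120 of these. In the test of the difference, 1055 genes had a higher and 1923 a lower Sorafenib effect in siY/T cells. These counts leaned on single libraries: without siY_T_DMSO replicate 2 they were 2170 and 2405, and without siCtr_DMSO replicate 2 they were 446 and 1135.

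**Figure D4:**
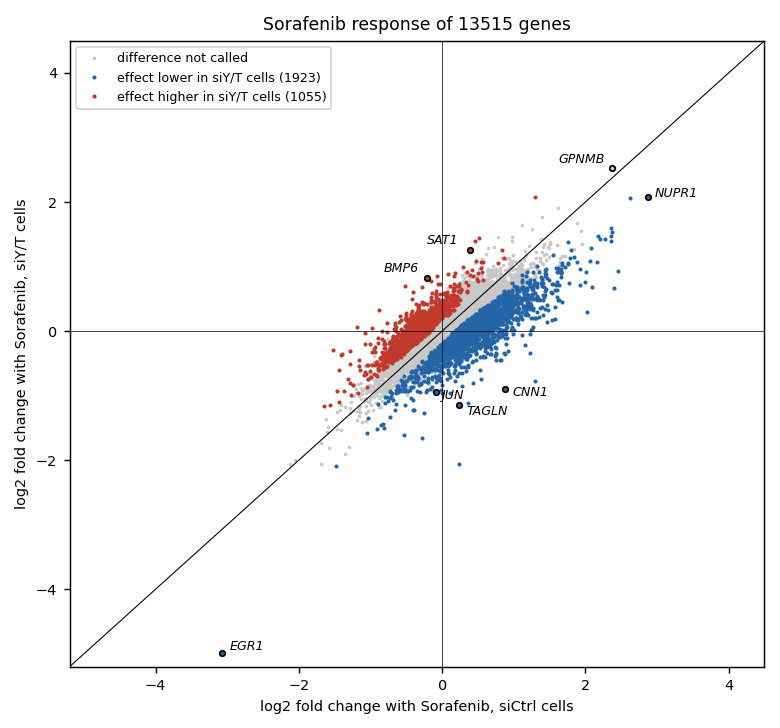
Log2 fold change with Sorafenib in siY/T cells (vertical axis) against siCtrl cells (horizontal axis) for 13515 genes, coloured by the test of the difference at an adjusted p under 0.05, with the line of equal effects. Genes with a lower effect in siY/T cells (1923, blue) outnumber those with a higher effect (1055, red), and EGR1 lies furthest from the origin.

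Among the 8 largest positive differences of genes averaging 5 CPM or more over the siY/T and siCtrl libraries, 6 genes fell in siCtrl cells and did not pass the size threshold in siY/T cells. FGB, a fibrinogen chain, was at 225 and 254 CPM with DMSO and at 231 and 267 CPM with Sorafenib in siY/T cells, and at 368 and 431 CPM and at 177 and 173 CPM in siCtrl cells. Its difference of effects was 1.24 ± 0.11 SE (limma interaction, adjusted p = 4.5e-05). CCL2, a monocyte chemokine, was at 111 and 94.0 CPM and at 78.4 and 80.7 CPM in siY/T cells (-0.36 ± 0.06 SE), but at 187 and 183 CPM and at 70.3 and 69.8 CPM in siCtrl cells, a difference of 1.03 ± 0.09 SE. CXCL5, a neutrophil chemokine, started low in siY/T cells, at 1.68 and 1.79 CPM, and differed by 1.23 ± 0.15 SE. INSYN2B (1.21 ± 0.11 SE), BIRC3, an inhibitor of apoptosis that NF-kB induces (1.02 ± 0.13 SE), and TMEM156 (0.98 ± 0.13 SE) had changes of 0.32, 0.05 and -0.31 in siY/T cells and of -0.89, -0.97 and -1.29 in siCtrl cells. BMP6 and PLAGL1 instead rose in siY/T cells: BMP6, a bone morphogenetic protein, from 7.84 and 8.72 CPM to 14.2 and 15.8 CPM (0.82 ± 0.09 SE) and PLAGL1, a zinc finger factor, from 3.73 and 3.89 CPM to 7.49 and 7.08 CPM (0.85 ± 0.11 SE), with values of -0.21 and -0.07 in siCtrl cells. The exons of BMP6 overlap those of TXNDC5 on the opposite strand.

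Among the largest negative differences of genes at that level, beside EGR1, CNN1 and TAGLN, were mostly genes that rose in siCtrl cells and less or not in siY/T cells. FLT4, the receptor VEGFR3 and a target of Sorafenib, was at 9.01 and 9.30 CPM with DMSO and at 7.38 and 6.83 CPM with Sorafenib in siY/T cells (-0.35 ± 0.07 SE), and at 13.4 and 13.5 CPM and at 31.7 and 32.8 CPM in siCtrl cells. Its difference was -1.57 ± 0.09 SE (limma interaction, adjusted p = 1.7e-06). OLFML2A, an extracellular matrix protein, was at 0.19 ± 0.07 SE in siY/T and 1.57 in siCtrl cells. MAP2K6, a kinase upstream of p38, rose in both, from 8.62 and 7.32 CPM to 15.9 and 15.2 CPM in siY/T cells (0.93 ± 0.13 SE) and from 1.16 and 1.31 CPM to 9.44 and 8.63 CPM in siCtrl cells. GFPT2, an enzyme of the hexosamine pathway, fell in siY/T cells from 34.4 and 23.4 CPM to 13.9 and 11.8 CPM (-1.12 ± 0.14 SE) and was at 0.36 in siCtrl cells. MUC16, the antigen CA125, was at 179 and 291 CPM and at 383 and 348 CPM in siY/T cells, a rise of 0.67 ± 0.25 SE that was no longer called without siY_T_DMSO replicate 1 (0.32) or either siY_T_SRF replicate (0.61 and 0.74). With all libraries kept, the rise of MUC16 did not pass with DESeq2 (0.62, adjusted p = 0.13) or with limma without the filter on low values (0.67, adjusted p = 0.11). In siCtrl cells it went from 17.1 and 29.5 CPM to 106 and 137 CPM.

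Genes of secretion and the cell surroundings moved in both directions. Of 28 extracellular matrix genes 2 rose and 4 fell, and 12 had a lower and 4 a higher effect in siY/T cells (1 higher without siY_T_SRF replicate 1). Among all genes tested, 14.2% had a lower and 7.81% a higher effect in siY/T cells. COL12A1, a collagen chain, rose from 109.7 and 145 CPM to 231 and 228 CPM (0.86 ± 0.10 SE). TIMP3, an inhibitor of metalloproteinases, changed by -0.80 ± 0.13 SE and PLAUR, the urokinase receptor, by -0.66 ± 0.11 SE, a call lost without siY_T_DMSO replicate 1 (-0.50) or siY_T_SRF replicate 2 (-0.57). COL1A2, TNC and TIMP2 were at 0.32, -0.31 and 0.18. Among 11 inflammatory genes the 2 called were cytokines that signal through gp130, IL11 (6.69 and 4.40 CPM to 1.28 and 1.47 CPM, -1.66 ± 0.15 SE) and LIF (14.1 and 13.4 CPM to 5.99 and 5.26 CPM, -1.22 ± 0.08 SE). Both had a lower effect in siY/T than in siCtrl cells, with differences of -1.38 ± 0.22 SE and -0.56 ± 0.12 SE (limma interaction, adjusted p = 1.1e-03 and 6.1e-03). NFKBIA, the NF-kB inhibitor, was at 0.27 ± 0.07 SE and TNFAIP2 at -0.40 ± 0.10 SE.

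Of 21 interferon-stimulated genes 2 rose, IFIT1 and IFIT2, which bind viral RNA or restrain translation, by 0.76 ± 0.10 SE and 0.80 ± 0.13 SE. IFIT1 was at 8.89 and 9.59 CPM and at 15.3 and 16.7 CPM, and in siCtrl cells at 2.67 and 3.15 CPM and at 13.0 and 13.0 CPM. The list's median was 0.15 in siY/T and 0.51 in siCtrl cells, and 11 members had a lower effect in siY/T cells and 0 a higher one, a count that was 5 without siCtr_DMSO replicate 2. Among all genes tested, 14.2% had a lower and 7.81% a higher effect in siY/T cells. OAS3 and STAT2, at -0.48 and 0.24, were not called. Of 19 growth factor receptors, ligands and RAF kinases 3 rose and 3 fell. FGFR4 (49.0 and 45.9 CPM to 88.4 and 88.0 CPM, 0.89 ± 0.07 SE), PDGFRB (41.3 and 41.9 CPM to 67.5 and 72.9 CPM, 0.75 ± 0.07 SE) and ERBB3 (23.0 and 25.6 CPM to 39.7 and 42.0 CPM, 0.74 ± 0.07 SE) rose, and these receptor tyrosine kinases rose in siCtrl cells too, by 0.81, 0.85 and 0.91. The ligands FGF1 and PDGFA fell by 1.39 ± 0.15 SE and 0.72 ± 0.11 SE on the log2 scale, and the receptor FGFR3 changed by -0.59 ± 0.11 SE, a call lost without siY_T_DMSO replicate 1 (-0.49) or siY_T_SRF replicate 2 (-0.52). FGFR1 and MET were both at -0.17.

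In the lists of cell maintenance few genes passed the size threshold. Of 22 endoplasmic reticulum chaperones and sensors 1 fell, SDF2L1 (-0.59 ± 0.08 SE, a call lost without siY_T_DMSO replicate 1 at -0.48 or siY_T_SRF replicate 1 at -0.56), and CALR and CANX, the lectin chaperones, were at -0.14 and 0.16. Of 13 heat shock chaperones 0 were called with limma, edgeR or DESeq2. All 13 were below 0 at an adjusted p under 0.05 (limma) but missed the size threshold, with a median of -0.35. HSP90AA1, the inducible HSP90, was at 1263 and 1480.3 CPM with DMSO and at 985 and 973 CPM with Sorafenib (-0.48 ± 0.06 SE, and -0.60 without siY_T_DMSO replicate 1). That effect was higher than in siCtrl cells by 0.44 ± 0.09 SE (limma interaction, adjusted p = 4.3e-03). Of the 13, 7 differed in this direction and 1 in the other, against 7.81% and 14.2% of all genes tested. Of 26 autophagy and lysosome genes 1 rose, the sialidase NEU1 (0.67 ± 0.05 SE), while the cathepsins CTSD and CTSB and the autophagy receptor SQSTM1 were at 0.53, 0.28 and 0.41. Of 16 glycolysis genes ENO2, the neuronal enolase, was the 1 called, at the threshold (0.58 ± 0.06 SE, 0.56 without siY_T_DMSO replicate 1 and 0.55 without siY_T_SRF replicate 2), and PKM was at -0.18. The ENO2 call was also lost with TMM scaling (0.55), quantile normalization (0.53), edgeR (0.57) and DESeq2 (0.577), and with a pseudocount of 1 (0.57). Of 14 hypoxia genes ANGPTL4 was the 1 called, and PFKFB3, a glycolytic regulator, was at -0.32. Of 5 metallothionein and zinc export genes MT1F rose, at under 2 CPM in all 4 libraries (0.65 ± 0.15 SE, and 0.45 without siY_T_DMSO replicate 2), and MT1E was at 0.41. None of 30 respiratory chain genes and none of 36 ribosomal protein genes was called (0 with limma, edgeR and DESeq2 in both lists). At an adjusted p under 0.05 and any size (limma), 3 respiratory chain genes were above 0 and 9 below. Of the ribosomal protein genes 31 were above 0 and 0 below by the same test. The ribosomal list nonetheless had a median of 0.25, with RPLP0 at 0.22, RPL4 at 0.27 and RPS3 at 0.28.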

How the data were processed

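Single-end RNA sequencing reads of 12 HLE libraries (6 groups of 2) were mapped by the authors to hg19 with STAR, keeping unique hits, and counted over exons of RefSeq mRNAs with QuasR. The strand setting of the counting is not given in the sources used here. The authors deposited CPM, reads of a gene scaled to a library total of 1000000, for 26258 gene identifiers, and all values (100% in each library, within 0.001 read) were whole multiples of 1 read, worth 0.0195 to 0.0241 CPM in siY/T libraries, so that read numbers could be recovered. Intervals from reads would cover counting error only.

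Genes at 1 CPM or more in at least 2 libraries (13515) were fitted with limma 3.58.1 in R 4.3.3 (trend on log2(CPM + 0.5), 1 coefficient per group, all 12 libraries), since the deposited unit was CPM and not counts. Fold changes on this scale understate those of low genes. P values were two-sided and adjusted after Benjamini and Hochberg. The difference of Sorafenib effects was siY/T minus siCtrl. Alternatives were other pseudocounts (0.1 and 1), other filters, TMM and quantile scaling, a replicate block, the compared groups alone, each library left out, and edgeR 4.0.16 and DESeq2 1.42.0 on the recovered reads. On simulated reads with 200 changed genes (log2 change 1.5) among 13515, limma recovered 199 for the siY/T comparison.

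Members and gene lists were chosen with earlier results of these data known. Named genes were the siRNA targets, SLC7A11, CHAC1 and ATF3, the 12 largest rises and falls (called, groups not overlapping, averaging 5 CPM or more), up to 6 called members and 3 uncalled members of each list (the latter by abundance), the 8 largest differences in each direction (adjusted p under 0.05, averaging 5 CPM or more over the 8 siY/T and siCtrl libraries), and the 3 most abundant called genes in each direction, and some genes this rule names are not reported here. Coordinates are those of GRCh37, and promoter windows those of RefSeq on GRCh38.p14. Exon overlaps were read from GENCODE on GRCh37. Further named genes overlap a listed gene on the opposite strand without a remark in the text, among them TUBA1C (TUBA1A), IFIT2 (LIPA) and ETV4 (DHX8).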

Additional observations from a re-analysis of the deposited data

Results flagged for a closer look

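The results that stood out were differences between the Sorafenib effects of siY/T and siCtrl cells, each by the interaction term of the limma fit at an adjusted p under 0.05. Over all genes tested, 1055 had a higher and 1923 a lower effect in siY/T cells.

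On the log2 scale, the effect was lower in siY/T cells by more than 1 for DUSP8 (-2.06), EGR1 (-1.91), CNN1 (-1.78), MUC16 (-1.72), FLT4 (-1.57), MAP2K6 (-1.53), GFPT2 (-1.47), TAGLN (-1.39), IL11 (-1.38), OLFML2A (-1.38), JUND (-1.28) and GDF15 (-1.24). A lower effect was also found for ATF3 (-0.99), ADM2 (-0.96), CHAC1 (-0.85), JUN (-0.85), NUPR1 (-0.80), ALDH3B1 (-0.77), ART5 (-0.77), FHL2 (-0.73), VEGFA (-0.72), NRTN (-0.70) and TRIB3 (-0.69). Smaller negative differences were those of DDIT3 (-0.69), FLNA (-0.67), ACTB (-0.58), LIF (-0.56), ESPL1 (-0.35), ATF4 (-0.33), AURKB (-0.32) and UBE2C (-0.27).

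The effect was higher in siY/T cells for FGB (1.24), CXCL5 (1.23), INSYN2B (1.21), BMP6 (1.04), CCL2 (1.03), BIRC3 (1.02), TMEM156 (0.98), MUC15 (0.93), PLAGL1 (0.92), SAT1 (0.87), SPRY2 (0.83), RASL10B (0.78), CCND1 (0.56), CCN2 (0.53), IGFBP3 (0.49) and HSP90AA1 (0.44). Of the genes given here, NRTN, MUC15 and RASL10B had a difference that did not pass in every alternative.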

How the results depend on the processing

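The counts of genes raised and lowered in siY/T cells (788 and 560) stayed within 1.5 times under every alternative that kept the size threshold, and a change of at least 1 left 105 and 86. Leaving out 1 library gave 635 to 1164 raised genes (1164 without siY_T_DMSO replicate 2) and 541 to 629 lowered genes. The counts of higher and lower effects in siY/T cells (1055 and 1923) moved more. They were 1999 and 2904 at an unadjusted p under 0.05, and 652 higher effects were left when only the compared groups were fitted. Leaving out 1 library gave 446 to 2170 higher and 1135 to 2405 lower effects: 2170 higher without siY_T_DMSO replicate 2, 614 without siY_T_SRF replicate 1, 620 without siCtr_DMSO replicate 1, 446 and 1135 lower without siCtr_DMSO replicate 2, and 475 and 1148 lower without siCtr_SRF replicate 2. The cause was not tested.

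The replicate numbers did not pair the libraries (correlations of same-numbered deviations from -0.282 to 0.193), and a replicate block gave 788 raised, 560 lowered, 981 higher and 1833 lower effects. Quantile normalization turned the split of calls, with 53.1% lowered against 41.5%. Of the changes of single genes under all alternatives, 2311 kept direction and call, 43 lost the call, 15 gained one (CDT1, TOP2A, CENPF, FDFT1, ACTB, FHL2 and HSP90AA1) and 5 turned in sign. The latter, none of them called, were YAP1 (-0.27 to 0.037 with 1 library left out, above 0 without siY_T_DMSO replicate 2), FGB (-0.048 to 0.16, below 0 without siY_T_DMSO replicate 1, at -0.03, or siY_T_SRF replicate 2) and BIRC3 (-0.13 to 0.22, below 0 without siY_T_SRF replicate 1, and -0.026 with quantile normalization). Of the differences, 836 were kept and 10 were lost. Of the list medians, 47 moved by more than their spread and 345 did not. With 2 libraries per group, the spread rests on the pooled fit. Changes of genes under 1 CPM depend on the added 0.5 CPM as well as on depth.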
